A study of Mus musculus with 5 samples.

Results

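The genes of oxidative phosphorylation were described in γδ T cells taken from the skin, lymph nodes and thymus of mice. The members were the genes whose symbols name structural subunits of respiratory complexes I to V (Nduf, Sdh, Uqcr, Cox4 to Cox8 and Atp5 symbols), the NDUFAF assembly factors that share the Nduf prefix, and the protein-coding genes of mitochondrial DNA (mt- symbols), with at least 20 UMIs over the 5 libraries. A UMI (unique molecular identifier) marks 1 captured RNA molecule. The rule named 105 of the 27998 genes in the matrices, and 100 were members: 87 encoded in the nucleus and 13 on mitochondrial DNA. The nuclear members were 36 subunits of complex I, 4 of complex II, 8 of complex III, 14 of complex IV, 15 of complex V, 7 assembly factors (Ndufaf1 to Ndufaf7) and 3 accessory genes (Cox7a2l, Atp5s and Atp5sl). Just below the minimum lay Cox4i2 with 11 UMIs and Ndufa4l2 with 2, while Cox7b2, Cox8b and Cox8c had 0. The members just above it were Cox6a2 with 23 UMIs, Atp5s with 63, Cox6b2 with 110 and Ndufaf6 with 163.

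The respiratory chain of the inner mitochondrial membrane passes electrons from NADH (complex I) and succinate (complex II) through complex III and cytochrome c to oxygen at complex IV, and complexes I, III and IV pump protons as they do so. The returning protons drive complex V, the ATP synthase. Mitochondrial DNA encodes core subunits of complexes I, III, IV and V, while the nucleus encodes the other subunits, all of complex II and every assembly factor, so both sets of genes supply the same complexes. T cells that divide or make effector molecules use both glycolysis and this chain, and IL-17-producing γδ T cells are known for their reliance on mitochondrial oxidation.

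Each group was 1 library of sorted cells, made with the 10x Genomics 3' v2 kit. Vγ4 T cells and Vγ6 T cells (named for their T cell receptor γ chain) came from ear skin, and further Vγ6 T cells from peripheral lymph nodes (pLN) and from thymus, all of C57BL/6 mice aged 8 weeks. A further library was a mixture of Vγ6 cells aged 8 to 10 weeks from the pLN of TcrdCreER mice, the thymus of ACT-FLPe mice and the ear skin of TcrdH2BeGFP mice, whose labels do not say which cell came from which tissue; TcrdCreER and TcrdH2BeGFP are alleles of the T cell receptor δ locus and ACT-FLPe is a recombinase transgene driven by an actin promoter, so that the 3 tissues of the mixture also differed in genotype. Ears were digested with collagenase for 75 minutes at 37 °C, and thymus cells were incubated for 30 minutes at 37 °C with antibody and complement to remove CD4 and CD8 cells, whereas for pLN only mechanical release is described; tissue and preparation cannot be told apart. The number of mice behind a library is not given in the labels used here.

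After leaving out cell barcodes with fewer than 200 genes or more than 10% mitochondrial UMIs, the libraries of skin Vγ4, skin Vγ6, pLN Vγ6, thymus Vγ6 and the mixture held 1178, 687, 1458, 2517 and 2006 cells, with 793463 UMIs in skin Vγ6 and 6607432 in thymus at the extremes. Any 2 libraries shared 0 to 9 barcodes. All 10 genes of a γδ T17 cell list were detected in every library and summed to between 3066 and 6385 CPM (counts per 1000000 UMIs). The libraries also differed in ways that bear on what follows. Cell cycle genes (20 genes) summed to 11197 CPM in pLN, 5505 in thymus, 1759 in skin Vγ6, 1978 in skin Vγ4 and 2982 in the mixture. The 8 dendritic cell or macrophage markers summed to 1871 CPM in pLN, 841 in skin Vγ6, 334 in thymus, 251 in skin Vγ4 and 1642 in the mixture, led by Cd74 (999 CPM in pLN). The 7 keratinocyte markers summed to 1224 CPM in skin Vγ4 against 63.9 to 267 in the others, of which 1 to 3 were at 0 in each library. With 1 library per group no test between groups was possible. All intervals below are 95% intervals that cover counting error alone and say nothing of the spread between mice, and no difference has a replicate check.

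The comparison of promoters made further below turns on 3 motifs, so the stretches that hold them are shown first. Promoter windows came from RefSeq (build GRCm38.p6, 250 bases before to 50 after the annotated start), and 71 of the 87 nuclear members were matched by symbol. Each stretch of 30 bases is printed 5′ to 3′ on the gene's strand. In the first 7 the capitals mark AAGATGGCG, a YY1-type motif, in the 3 stretches of Sdha they mark an NRF1-type motif (GCGCA, any base, then GCGC), and in Uqcrfs1 they mark TGACGTCA, a cyclic AMP response element (CRE). YY1 and NRF1 are transcription factors known for binding promoters of respiratory chain genes.
Ndufs4, chr13:114388045-114388074, minus strand: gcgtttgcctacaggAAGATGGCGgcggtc
Ndufs7, chr10:80249463-80249492, plus strand: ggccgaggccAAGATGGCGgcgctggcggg
Ndufs6, chr13:73328433-73328462, minus strand: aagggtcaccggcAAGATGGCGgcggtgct
Ndufa9, chr6:126849096-126849125, minus strand: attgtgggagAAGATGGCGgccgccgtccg
Ndufc1, chr3:51408914-51408943, minus strand: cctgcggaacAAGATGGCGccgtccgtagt
Atp5j, chr16:84835045-84835074, minus strand: aagtgtaggaAAGATGGCGgagtcttagct
Atp5j2, chr5:145191499-145191528, minus strand: ccaggacttcAAGATGGCGtcactcggtga
Sdha, chr13:74350319-74350348, minus strand: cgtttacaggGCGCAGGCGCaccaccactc
Sdha, chr13:74350276-74350305, minus strand: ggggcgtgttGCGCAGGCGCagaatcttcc
Sdha, chr13:74350231-74350260, minus strand: gcgactcggtGCGCAAGCGCagtctgtcgc
Uqcrfs1, chr13:30545327-30545356, minus strand: cggcgtcgcgcTGACGTCAcaaaccctgcg

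The first comparison set Vγ6 cells of skin against those of pLN, and nuclear members were lower in skin in nearly every case. The 77 nuclear subunits summed to 20100 CPM in skin Vγ6, 34134 in pLN, 27399 in thymus, 19262 in skin Vγ4 and 25330 in the mixture. Both skin libraries lay below all the others, pLN was highest and thymus lay between. The skin Vγ6 to pLN ratio of these sums was 0.589 (interval 0.579 to 0.599). A gene was called where its CPM differed by at least 2-fold and its interval left out 1, provided that 1 of the libraries reached 20 CPM. Of the 82 nuclear members that reached this level in either library, 43 were called lower in skin and 0 higher, or 52.4% lower, against a background of 30.4% called lower and 16.0% called higher among all 5770 genes measured. The median log2 ratio (pseudocount 1 CPM) was -1.04 for nuclear members and -0.38 for all genes. Below 0 lay 78 of the 82 nuclear members, beside 3597 of all 5770 genes. With a 1.5-fold rule 60 were lower and 1 higher (backgrounds 40.7% and 22.2%). The other 5 nuclear members were below 20 CPM in both libraries. Scaling by TMM or by median of ratios (methods that set library sizes from genes that vary little) moved the all-gene median from -0.38 to -0.08 and -0.07, and the count of lower nuclear members from 43 to 27 and 25, or 33.3% and 30.9% beside 23.3% and 22.9% of all genes. The median of the nuclear subunits minus that of all genes was -0.66, -0.70 and -0.69 in turn, but it was -0.40 without dividing cells (at least 3 UMIs of the 20 cell cycle genes), -0.40 without cells carrying other-type markers and -0.42 without G2/M cells. Dividing cells were 82.4% of pLN and 12.7% of skin Vγ6 cells, so 256 pLN cells remained without them. Cells carrying other-type markers were 63.4% and 15.1%.

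**Figure D1:**
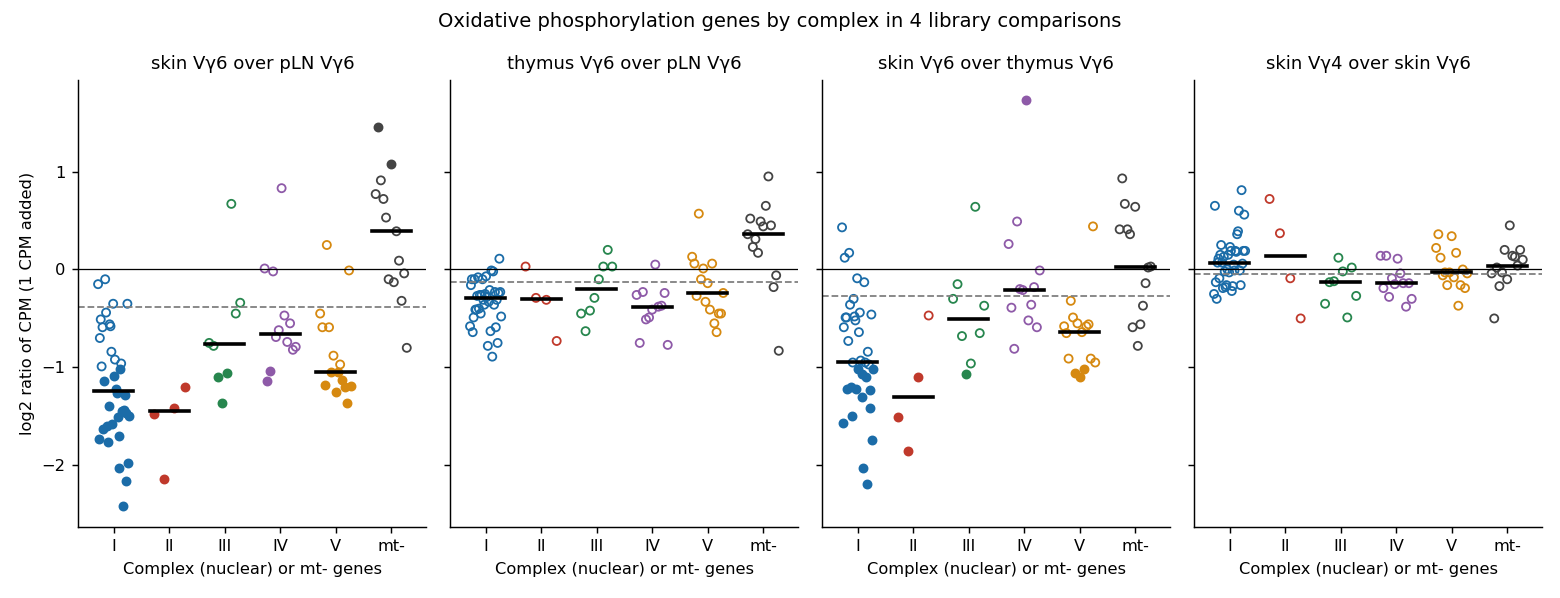
Log2 ratio of CPM (pseudocount 1) for each measured nuclear subunit, grouped by complex I to V, and for each mt- gene, in the 4 comparisons between libraries. Each point is 1 gene (filled where called), thick bars are group medians and the dashed line is the median of all genes. In skin Vγ6 over pLN the complex medians lie between -1.45 and -0.66, and in skin Vγ4 over skin Vγ6 no point is filled.

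Complex I, the NADH dehydrogenase, summed to 5142 CPM in skin Vγ6 and 10428 in pLN, a ratio of 0.493 (0.477 to 0.509). Of its 36 nuclear subunits 22 were called lower, or 61.1% beside 30.4% of all genes, and their median log2 ratio was -1.24. The 7 nuclear core subunits, which carry the flavin and iron-sulfur centres, gave 0.362 against 0.506 for the 29 supernumerary ones. Ndufs4 (chr13:114287795-114388258 in mm10), a supernumerary subunit needed to finish assembly of the enzyme, had 29 CPM in skin Vγ6, 44.5 in skin Vγ4, 159 in pLN, 136 in thymus and 123 in the mixture. Both skin libraries lay far below the others, and its skin Vγ6 to pLN ratio was 0.182 (0.115 to 0.276). Ndufs7 (chr10:80249121-80256794), a core subunit that holds an iron-sulfur cluster, had 46.6, 82.2, 212, 126 and 161 CPM in the same order. Its ratio of 0.22 (0.154 to 0.305) was among the lowest, with thymus between pLN and the skin libraries.

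Other complex I subunits were spread widely around that median. Ndufc2 (chr7:97400003-97407802), a supernumerary subunit, had 69.3 CPM in skin Vγ6, 79.1 in skin Vγ4, 287 in pLN, 286 in thymus and 185 in the mixture, so that pLN and thymus were level and the ratio of skin Vγ6 to pLN was 0.241. Ndufv2, which holds an iron-sulfur cluster of the NADH-oxidising module (chr17:66078638-66101559), had 44.1 CPM in skin Vγ6 and 177 in pLN, a ratio of 0.25. Ndufa3 (chr7:3617373-3620327) was more abundant, with 221 and 685 CPM and a ratio of 0.322; 3' UMI counts do not scale with transcript length, so levels of different genes are compared here as captured molecules. The core subunits Ndufs1 and Ndufv1 were less far apart. Ndufs1 had 22.7 CPM in skin Vγ6 against 47 in pLN (0.482), and Ndufv1, the subunit that binds NADH, had 52.9 against 67.7 (0.782, not called).

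Complex II, the succinate dehydrogenase shared with the tricarboxylic acid (TCA) cycle, is encoded wholly in the nucleus and showed the lowest ratio of the 5 complexes. Its 4 subunits summed to 192 CPM in skin Vγ6, 214 in skin Vγ4, 615 in pLN, 488 in thymus and 418 in the mixture. The skin Vγ6 to pLN ratio was 0.312 (0.263 to 0.367), and all 4 subunits were called lower (100% beside 30.4% of all genes). Sdhb (chr4:140961203-140979193), the iron-sulfur subunit, had 66.8 CPM in skin Vγ6, 86.9 in skin Vγ4, 298 in pLN, 243 in thymus and 156 in the mixture. Skin Vγ6 and skin Vγ4 were again the lowest, and the ratio to pLN was 0.224 (0.167 to 0.295). Sdha, the catalytic flavoprotein, had 35.3, 59, 100, 103 and 104 CPM in that order, with pLN, thymus and the mixture level and a ratio of 0.351.

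Complex III, the cytochrome c reductase, had a ratio of 0.645 (0.616 to 0.676), from 2537 CPM in skin Vγ6 and 3932 in pLN. Of its 8 nuclear subunits 3 were called lower, or 37.5%, which is near the 30.4% of all genes. Their median log2 ratio was -0.76 beside -0.38 for all genes. Its members went different ways. Uqcrc1, a core protein, had 98.3 CPM in skin Vγ6 against 254 in pLN (0.386). Uqcrfs1 (chr13:30540308-30545362), the Rieske iron-sulfur protein that takes electrons from ubiquinol, had 328 CPM in skin Vγ6, 232 in skin Vγ4, 205 in pLN, 209 in thymus and 220 in the mixture. Skin Vγ6 was therefore the highest library and the other 4 lay close together. The ratio to pLN was 1.6 (1.39 to 1.84), short of the 2-fold call. On the log2 scale it was 0.67, and 0.92 and 0.95 under TMM and median-of-ratios scaling.

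Complex IV, the cytochrome c oxidase, had a ratio of 0.674 (0.655 to 0.693), from 6769 and 10045 CPM in skin Vγ6 and pLN. Of its 12 measured nuclear subunits 2 were called lower, or 16.7%, which is below the 30.4% of all genes. Their median log2 ratio was -0.66 beside -0.38 for all genes. Cox4i1, the ubiquitous form of the regulatory subunit 4, had 1156 CPM in skin Vγ6, 1269 in skin Vγ4, 1151 in pLN, 962 in thymus and 958 in the mixture. The skin Vγ6 and pLN values did not differ beyond counting error (ratio 1.0, 0.934 to 1.08), although the log2 ratio of 0.01 became 0.26 and 0.28 under TMM and median-of-ratios scaling. Cox6a1 had 800 CPM in skin Vγ6 and 814 in pLN (0.983), with a log2 ratio of -0.02 that turned to 0.23 and 0.25 under those scalings. Ndufa4, named as a complex I gene but known as a complex IV subunit, had 832 and 1438 CPM (0.579).

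Paired isoforms of complex IV, of which 1 form is widespread and the other is known best from heart and muscle or testis, were dominated by the widespread form. Cox6a1 made up at least 99.6% of Cox6a UMIs in every library, and Cox6b1 made up 98.2% to 99.8% of Cox6b UMIs. Cox6a2, the heart and muscle form, had 0 UMIs in both skin libraries, 3.32 CPM in pLN, 1.21 in thymus and 0.338 in the mixture. The interval of pLN was 1.82 to 5.58 CPM. The exact interval of skin Vγ6 reaches 4.65 CPM, and that of its ratio to pLN reached 1.6, so this difference was not detectable at this depth. For skin Vγ4 the exact interval reaches 1.91 CPM, and its ratio to pLN is not given here. Cox7a1, the heart and muscle form of subunit 7a, had 21.4 CPM in skin Vγ6, 23.3 in skin Vγ4, 11.6 in pLN, 5.75 in thymus and 11.1 in the mixture. The skin libraries were the highest, with a skin Vγ6 to pLN ratio of 1.84 (0.994 to 3.25) whose interval reached 1. Cox7a1 gave 3.28% of the UMIs of its family in skin Vγ6, 3.21% in skin Vγ4, 1.39% in pLN and 0.553% in thymus, the rest being Cox7a2 and Cox7a2l.

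Complex V, the ATP synthase, had a ratio of 0.599 (0.58 to 0.618), from 5461 CPM in skin Vγ6 and 9115 in pLN. Of its 15 nuclear subunits 8 were called lower, or 53.3% beside 30.4% of all genes. The 5 subunits of F1, the catalytic head with its central stalk (Atp5a1, Atp5b, Atp5c1, Atp5d and Atp5e), gave 0.703. The other 10 subunits, of the membrane part and the outer stalk, gave 0.559. Atp5b, the catalytic β subunit, had 439 CPM in skin Vγ6, 563 in skin Vγ4, 660 in pLN, 687 in thymus and 517 in the mixture (0.665). Atp5a1, the α subunit, had 271 against 371 CPM (0.73), and neither was called. The 3 genes that encode the same c subunit kept similar proportions, with Atp5g1 giving 47.1% of their UMIs in skin Vγ6, 44.7% in skin Vγ4, 42.7% in pLN, 42.1% in thymus and 39.7% in the mixture. Atp5d and Atp5l stood apart from the median: Atp5d (the δ subunit of the central stalk) had 408 and 343 CPM in skin Vγ6 and pLN, and Atp5l, in the membrane part, had 1216 and 1225.

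The assembly factors among the members were low in abundance and gave a ratio of 0.38 (0.301 to 0.475). Of 6 measured, 4 were called lower, or 66.7% beside 30.4% of all genes. Ndufaf3 had 15.1 CPM in skin Vγ6, 7.76 in skin Vγ4, 59.8 in pLN, 22.2 in thymus and 32.1 in the mixture, pLN being well above the rest. Ndufaf1 had 2 UMIs in the whole skin Vγ6 library (ratio 0.0775, 0.00929 to 0.285).

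**Figure D2:**
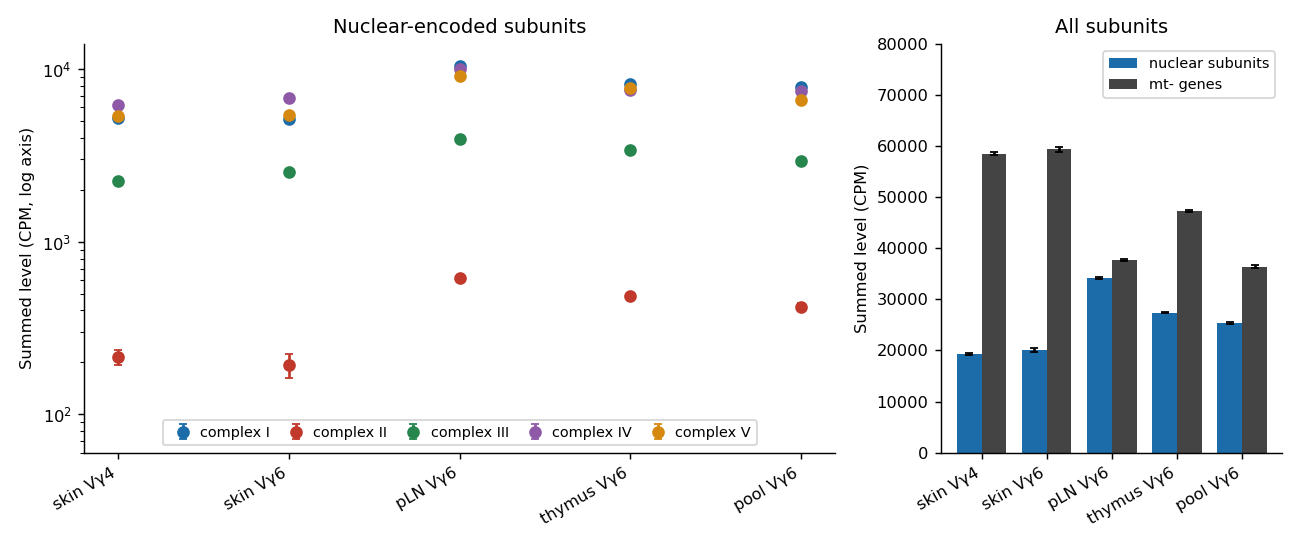
Left, summed CPM (log axis) of the nuclear subunits of each complex in the 5 libraries, the mixture being labelled pool; right, all nuclear subunits and all mt- genes as bars from 0, with 95% counting intervals in both. Nuclear sums are lowest in both skin libraries and highest in pLN (34134 CPM), whereas the mt- sums are highest in skin (58512 and 59375 CPM).

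The 13 genes of mitochondrial DNA did not follow the nuclear ones. They summed to 59375 CPM in skin Vγ6, 58512 in skin Vγ4, 37801 in pLN, 47288 in thymus and 36424 in the mixture, so that among the 4 C57BL/6 libraries skin was highest and pLN lowest. The skin Vγ6 to pLN ratio was 1.57 (1.55 to 1.59). There were 2.95 mt- UMIs per nuclear subunit UMI in skin Vγ6, 3.04 in skin Vγ4, 1.11 in pLN, 1.73 in thymus and 1.44 in the mixture. The limit of 10% mitochondrial UMIs acted on these genes directly, leaving out 120 of 812 barcodes in skin Vγ6, 216 of 1394 in skin Vγ4, 2 of 1461 in pLN, 32 of 2549 in thymus and 12 of 2018 in the mixture; without it the log2 ratio of the mt- sums of skin Vγ6 and pLN went from 0.65 to 0.72, and with a limit of 5% to 0.28. Over all barcodes, which lifts the minimum of 200 genes too, the mt- ratio was 1.68 and the nuclear ratio 0.575. A high mitochondrial share is also a usual sign of damaged cells, and its part in these ratios was not tested.

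Single mt- genes ranged from lower to more than 2-fold higher in skin. mt-Nd1, a membrane subunit of complex I, had 5920 CPM in skin Vγ6, 5504 in skin Vγ4, 2807 in pLN, 3806 in thymus and 3435 in the mixture (2.11, 2.04 to 2.18). mt-Atp8, of the membrane part of complex V, had 1130, 800, 412, 593 and 121 CPM in that order (2.75, 2.53 to 2.98). These 2 were the only mt- genes called, both higher in skin, or 15.4% of the 13 beside 16.0% of all genes, which is the background level. Neither call held with a mitochondrial limit of 5% (log2 ratios 0.69 and 0.75). The cytochrome c oxidase genes mt-Co1, mt-Co2 and mt-Co3 had ratios of 1.87, 1.64 and 1.44, and mt-Atp6 had 1.7. mt-Cytb, the cytochrome b of complex III, had 3665 CPM in skin Vγ6 and 3924 in pLN (0.934). Among the remaining complex I genes the ratios were 0.915 for mt-Nd2, 1.32 for mt-Nd3, 1.06 for mt-Nd4, 0.802 for mt-Nd4l, 0.975 for mt-Nd5 and 0.566 for mt-Nd6, the gene on the other DNA strand. Of all mt- UMIs, mt-Cytb gave 6.17% in skin Vγ6, 7.19% in skin Vγ4, 10.4% in pLN and 11.7% in thymus, and mt-Co1 gave 19.9%, 20.5%, 16.7% and 15.7%.

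Other genes of mitochondrial function were counted from lists of genes, beside the backgrounds of 30.4% called lower and 16.0% called higher in this comparison. Mitochondrial ribosomal proteins, which translate the mt- messages, had 47 of 73 measured genes called lower in skin Vγ6 than pLN and 0 higher (median log2 ratio -1.42). Examples with at least 100 CPM in pLN were Mrpl40 (5.04 against 121 CPM) and Mrpl42 (45.4 against 327 CPM). Factors that assemble the complexes had 18 of 27 called lower and 1 higher, with a median of -1.42 and ratios of 0.181 for Coa3 and 0.187 for Cox20. Of 17 TCA cycle genes 8 were called lower and 0 higher (median -0.57), and of 21 import genes 9 and 0 (median -0.76). Of 15 electron carriers and exchangers 7 were called lower and 1 higher (median -0.82). Within that list the phosphate carrier Slc25a3 had 625 CPM in skin Vγ6 and 312 in pLN (2.0, 1.8 to 2.22), while the ADP/ATP exchanger Slc25a4 had 118 and 455 (0.26). Among 10 biogenesis regulators 3 were lower and 2 higher (median 0.16), which is near the background in both directions, with Gabpb1, a subunit of an ETS-type factor, at 103 against 44.2 CPM and Ssbp1, which coats single-stranded mitochondrial DNA, at 18.9 against 141. As lists outside mitochondria, proteasome subunits had 16 of 38 called lower and 0 higher (median -0.89), and cytosolic ribosomal proteins had 1 of 78 called lower and 0 higher (median -0.12).

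The size of the nuclear ratio varied with a member's level. Across the 82 nuclear members, genes with a higher mean CPM had skin Vγ6 to pLN ratios nearer to 1 (Spearman's rho 0.46, across genes, which are not independent replicates). From the 27 least to the 28 middle and the 27 most abundant members the median log2 ratios were -1.41, -1.05 and -0.78, while over all genes rho was 0.08. Cells in G2/M phase, defined by at least 2 UMIs of 10 markers, made up 46.4% of pLN cells and 4.95% of skin Vγ6 cells; without them 30 nuclear members were called lower, or 36.6% beside 30.1% of all genes, and the median log2 ratio was -0.81 for nuclear subunits and -0.39 for all genes. Without cells that carried a narrower set of other-type markers (Cst3, Cd74, Sfn and Cpa3 left off, at least 2 UMIs of 1 list), the count was 35, or 43.2% beside 30.5% of all genes, and the medians were -0.91 and -0.38.

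The second comparison set thymus against pLN, and here the nuclear members differed little. The summed ratio of nuclear subunits was 0.803 (0.797 to 0.808), with 0.786 for complex I, 0.794 for II, 0.864 for III, 0.75 for IV and 0.854 for V. Of 81 measured, 2 were called lower, Ndufaf5 (8.93 against 20.9 CPM) and Ndufaf3, and 0 higher, against backgrounds of 11.3% lower and 11.8% higher. The median log2 ratio was -0.29 beside -0.13 for all genes, with 68 of 81 below 0 beside 3274 of all 5703 genes. A 1.5-fold rule called 14 lower and 1 higher (backgrounds 25.1% and 19.4%). Members with at least 100 CPM in the higher library and the lowest ratios were Ndufb7 (0.582), Ndufa4 (0.584), Ndufs7 (0.592), Cox5a (0.593), Sdhd (0.599) and Atp5j2 (0.641). Cox7a2l, which is known for joining complexes III and IV into supercomplexes, had 444 CPM in thymus, 256 in pLN, 221 in skin Vγ6, 301 in skin Vγ4 and 298 in the mixture. Thymus was the highest of the 5 libraries, at 1.74 (1.62 to 1.86) times pLN. Atp5d followed with 1.49. The mt- genes summed to 1.25 (1.24 to 1.26) times pLN with 0 of 13 called. In the lists, Gabpb1 was 2.78 (2.37 to 3.28) times and the mitochondrial chaperonin Hspe1 3.15 times the pLN level (1267 against 402 CPM), while 3 of 73 mitochondrial ribosomal proteins were called lower and 1 higher.

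The third comparison set skin Vγ6 against thymus. Nuclear subunits gave a ratio of 0.734 (0.722 to 0.746), and 26 of 81 measured nuclear members were called lower and 1 higher, or 32.1% lower, beside backgrounds of 24.5% and 13.7%. The median log2 ratio was -0.64, and -0.27 for all genes. Complexes I (15 members lower, summed ratio 0.627) and II (3 lower, 0.393) held most of the calls, against 1 for complex III (0.747), 3 for complex V (0.702) and 0 lower for complex IV (0.898). These were 41.7%, 75%, 12.5%, 20% and 0% of the measured subunits in that order, beside 24.5% of all genes. Under TMM and median-of-ratios scaling the count of lower members was 16 and 10, or 20% and 12.5% beside 20.2% and 17.6% of all genes, so the share called lower was at or below the background there. The median of the nuclear subunits minus that of all genes was -0.37, and -0.39 under both scalings. With a 1.5-fold rule 44 were lower and 2 higher (backgrounds 35.1% and 20.4%). Ndufs4 (0.214), Ndufc2 (0.243), Sdhb (0.275) and Ndufv2 (0.294) had the lowest ratios among members with at least 100 CPM in the higher library, and the scarcer Ndufaf1 had 0.125 (0.015 to 0.461). The member called higher was Cox7a1 at 3.73 (1.97 to 6.76), a call lost with a mitochondrial limit of 5% and in cells thinned to 800 UMIs each. Uqcrfs1 was 1.56, Cox6a1 1.4 and Cox4i1 1.2 times the thymus level. The mt- sum was 1.26 (1.24 to 1.27) times thymus, with 0 of 13 genes called, and this difference went from 0.33 to 0.01 on the log2 scale with a mitochondrial limit of 5%. As the first 3 comparisons share libraries, they are not independent of each other.

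The fourth comparison set the 2 skin libraries against each other. No nuclear member of 78 measured was called in either direction, beside backgrounds of 4.26% higher and 3.18% lower, and 0 of 13 mt- genes were called. A 1.5-fold rule called 3 nuclear members higher and 0 lower (7.34% and 7.72%). The nuclear sum gave a skin Vγ4 to skin Vγ6 ratio of 0.958 (0.941 to 0.976). Complexes I, II and V gave 1.02, 1.12 (0.926 to 1.36) and 0.983 (0.948 to 1.02), whose intervals held 1. Complexes III and IV gave 0.886 (0.84 to 0.934) and 0.917 (0.888 to 0.948). The median log2 ratio of the nuclear subunits, -0.02, had no stable sign (0.07 under TMM and 0.02 under median-of-ratios scaling). Among members with at least 100 CPM in the higher library, the lowest ratios were those of Uqcrfs1 at 0.709 (0.607 to 0.829), with Cox7c (0.766), Atp5j (0.773) and Uqcr10 (0.787) next, and the highest included Cox7a2l (1.36), Atp5b (1.28) and Atp5g2 (1.27). Less abundant members lay farther from 1 with wider intervals, such as Ndufs7 at 1.76 (1.23 to 2.6) and Sdha at 1.67 (1.1 to 2.63). The 7 core subunits of complex I gave 1.3 (1.14 to 1.5). Cytosolic ribosomal proteins, by contrast, lay above 0 in 78 of 78 genes (median log2 ratio 0.36), beside 2257 of all 4973 genes.

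Setting skin Vγ4 against pLN, an alternative added after the first results were seen, called 39 of 82 nuclear members lower and 1 higher (backgrounds 30.9% and 15.8%). To compare 2 skin contrasts that have no library in common, skin Vγ6 over pLN was set beside skin Vγ4 over thymus. Across 81 nuclear members the 2 log2 ratios gave Pearson's r of 0.85 and Spearman's rho of 0.85, as a description across genes. Over all 5089 genes measured in both, r was 0.75 and rho 0.76. The second contrast called 18 members lower and 1 higher, or 22.2% lower beside a background of 21.3%, so this count is at the background (11.8% of all genes were called higher). All 18 were also lower in the first, or 41.9% of the first list and 100% of the second, beside 43.1% and 63.6% for the lists of all genes called lower.

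The mixture gave the same genes in a library made from other mice. Its cells were assigned to the skin, pLN or thymus Vγ6 library whose profile gave the highest likelihood. The members, all mt- genes and the cytosolic ribosomal protein genes were left out of the profiles, but cell cycle genes and the other lists above were not. Some of those lists, such as mitochondrial ribosomal proteins, were themselves lower in skin Vγ6 than pLN. The classes were made by likeness to the libraries compared above, so they are no independent check of those ratios. When applied to the 3 source libraries themselves the same rule returned 99.6%, 98.4% and 98.6% of cells to their own library. As those cells also built the profiles, these shares are no check of the rule. Of the skin Vγ4 cells, which built no profile, 95.2% fitted skin, 0.34% pLN and 4.41% thymus. The 2006 cells fell into 642 skin-fitting, 583 pLN-fitting and 781 thymus-fitting cells, which are classes by profile and no tissue labels. Nuclear subunits summed to 19509, 29573 and 25734 CPM in these classes. The skin-fitting to pLN-fitting ratio was 0.66 (0.647 to 0.673), with 0.552 for complex I, 0.473 for II, 0.75 for III, 0.719 for IV and 0.706 for V. Of 80 nuclear members 18 were called lower and 2 higher (backgrounds 21.5% and 12.6%), at a median log2 ratio of -0.70 beside -0.26 for all genes. The share called lower was thus near the background, while the median lay below it.

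Within the mixture Uqcrfs1 was one of those called higher, with 353 CPM in skin-fitting and 164 in pLN-fitting cells (2.16, 1.76 to 2.65), and Cox7a1 was the other, with 30.2 and 7.59 CPM (3.98). The ratio of Ndufs4 was 0.242, of Ndufc2 0.366, of Ndufa3 0.369, of Ndufs7 0.41, of Ndufv2 0.414 and of Sdhb 0.475. The mt- sums were 42433, 33205 and 35169 CPM, and the mt- to nuclear UMI ratio 2.18, 1.12 and 1.37 for skin-, pLN- and thymus-fitting cells. The mt- ratio of skin-fitting to pLN-fitting cells was 1.28 (1.26 to 1.3), with mt-Nd1 at 1.39 and mt-Atp8 at 1.84. Thymus-fitting over pLN-fitting cells called 0 of 80 nuclear members in either direction (backgrounds 6.36% higher and 6.53% lower) at a summed ratio of 0.87. Markers of other cell types summed to 1858, 3872 and 616 CPM in the 3 classes, and cells with cell cycle UMIs made up 14%, 22.5% and 23.7%. For skin-fitting over pLN-fitting cells, the median log2 ratio of nuclear subunits was -0.71 with all cells. It was -0.70 without dividing cells and -0.68 without cells carrying other-type markers. The nuclear members called lower were 18, 20 and 19 of 80 in turn. These were 22.5%, 25% and 23.8%, beside 21.5%, 20.2% and 20% of all genes. What caused the ratios was not tested.

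**Figure D3:**
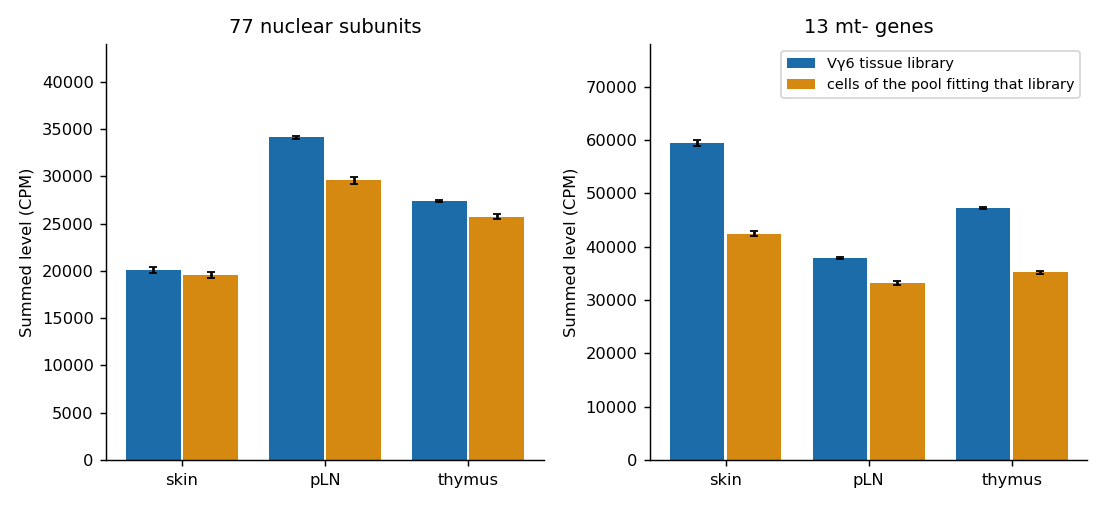
Summed CPM of the 77 nuclear subunits (left) and of the 13 mt- genes (right) in the skin, pLN and thymus Vγ6 libraries and in the cells of the mixture that fit each of them, as bars from 0 with 95% counting intervals. Nuclear sums are lowest for skin and highest for pLN in both sets of bars, and the mt- sums are highest for skin and lowest for pLN in both.

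The difference between libraries was also seen in the distribution over single cells. With every cell thinned to 800 UMIs, nuclear subunits took a median of 1.88% of a cell's UMIs in skin Vγ6, 1.75% in skin Vγ4, 3.12% in pLN, 2.5% in thymus and 2.5% in the mixture. Without thinning the medians were 1.86%, 1.76%, 3.16%, 2.56% and 2.42%. The central 90% of cells spanned 1% to 3% in skin Vγ6 and 2% to 4.5% in pLN, so the distributions overlapped. The mt- genes had medians of 5.75% in skin Vγ6, 5.88% in skin Vγ4, 3.88% in pLN, 4.75% in thymus and 3.62% in the mixture. Thinning left out 125, 39, 0, 10 and 323 shallower cells in the same order.

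**Figure D4:**
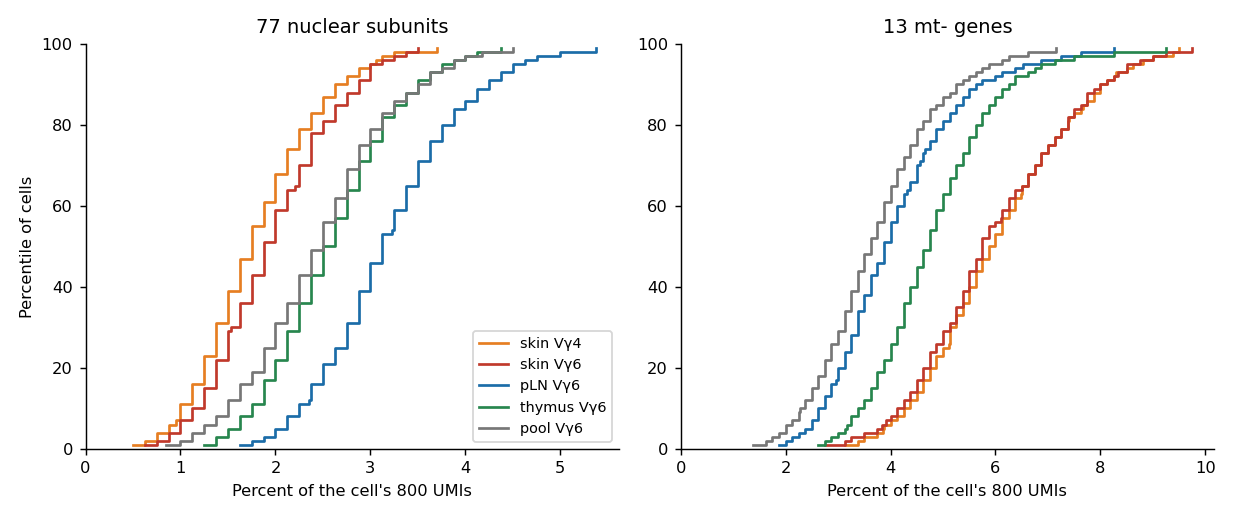
Cumulative distribution over cells of the percent of 800 UMIs that came from nuclear subunits (left) and from mt- genes (right), with 1 line per library, the mixture being labelled pool; the y axis is the percentile of cells. Median nuclear shares run from 1.75% (skin Vγ4) to 3.12% (pLN), and median mt- shares from 3.62% (mixture) to 5.88% (skin Vγ4).

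Within each library, cells in G2/M had a higher summed CPM of nuclear subunits than the rest. They were also the deeper cells, with median UMIs of 2145.5 against 1036 in skin Vγ6, 2927.5 against 1428 in skin Vγ4, 3097 against 1461 in pLN, 3793 against 1980.5 in thymus and 2914 against 1266.5 in the mixture. The part of depth and of doublets in the ratio was not tested. The ratio was 1.3 in skin Vγ6, 1.31 in skin Vγ4, 1.15 in pLN, 1.15 in thymus and 1.21 in the mixture. The mt- ratio was below 1 in each, from 0.846 in skin Vγ4 to 0.944 in thymus. Few single members were called higher in G2/M cells: 6 of 79 in skin Vγ6 (background 6.92%), 2 of 78 in skin Vγ4 (7.92%), 0 of 82 in pLN (7.34%), 0 of 80 in thymus (5.64%) and 1 of 81 in the mixture (10.4%). Called lower was 1 member in pLN (background 6.10%) and 0 in skin Vγ6 (1.66%), skin Vγ4 (2.87%), thymus (1.79%) and the mixture (7.55%). In thymus, cells with Gzma UMIs and no Cd163l1 were set against cells with Cd163l1 and no Gzma. Nuclear subunits gave 1.06 and mt- genes 1.04, with 0 nuclear members called (backgrounds 5.74% higher and 6.56% lower).

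The authors' deposited table of mean expression, with values per 10000 UMIs for 8 clusters of Vγ6 cells, listed 86 of the nuclear members. In the authors' deposited table the nuclear subunits summed to 197 in the Skin column, 311 and 368 in pLN_1 and pLN_2, and 257, 266, 268, 248 and 319 in Thy_1 to Thy_5. Skin was the lowest column for the sum and for 66 of the 86 members in the authors' deposited table, while 38 were highest in pLN_2 and 27 in Thy_5. Those 2 columns also had the highest cell cycle sums of the authors' deposited table (189 and 96, against 14.8 to 40.5 in the other 6). The mt- genes summed to 568 in Skin, 420 and 356 in pLN_1 and pLN_2, and 446 to 533 in the thymus columns of the authors' deposited table. The columns come from cells of the libraries above, so they are no independent measurement.

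By gene, the authors' deposited table had Ndufs4 at 0.26 in Skin and from 0.875 (Thy_4) to 1.65 (pLN_1) in the others. Uqcrfs1 was highest in Skin at 3.2, followed by 3.01 in Thy_5, with 1.61 to 2.25 in the remaining columns of the authors' deposited table. In Skin over pLN_1 of the authors' deposited table, 33 of 81 nuclear members were at least 2-fold lower and 1 higher (backgrounds 30.6% and 15.8%). For Skin over Thy_1 in the authors' deposited table these were 21 and 1 of 81 (backgrounds 27.3% and 15.5%), so the share lower was near the background there. The authors' deposited table of cluster markers listed 78 nuclear members for Skin, 76 of them with a negative natural-log fold change (2.56% positive, beside 15.1% of all genes listed), at a median of -0.33 beside -0.12 for all 5053 genes it listed there. For pLN_2 the authors' deposited table listed 78 members with 75 positive (96.2%, beside 75.5% of all genes listed there), and for Thy_5 50 with 48 positive (96% beside 90%). For pLN_1 the authors' deposited table listed 30 positive and 17 negative (63.8% positive beside 25.8%), and for Thy_1 27 and 22 (55.1% beside 69.7%). Its most negative Skin values in the authors' deposited table included Ndufa3 (-0.75), Ndufc2 (-0.72), Sdhb (-0.71) and Ndufs4 (-0.66), and Cox7a2l was positive in Thy_1 (0.58).

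**Figure D5:**
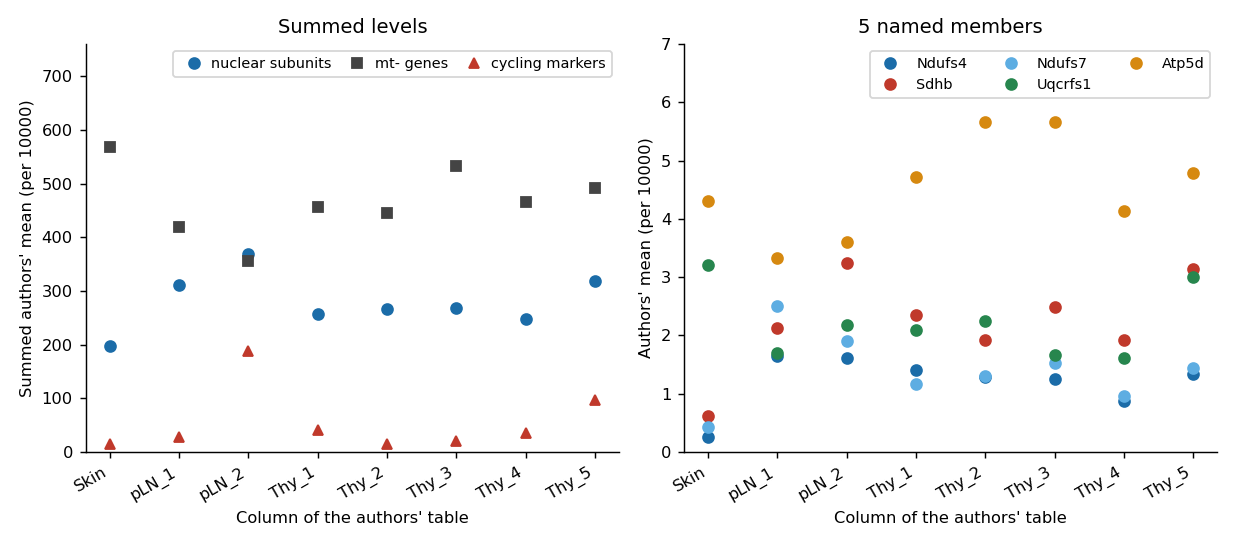
Left, summed nuclear subunit, mt- and cell cycle levels in the 8 columns of the authors' deposited table of means (per 10000 UMIs); right, the level of 5 members in the same columns. Skin has the lowest nuclear sum (197) and the highest mt- sum (568), and pLN_2 the highest nuclear sum (368).

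The promoters of the nuclear members held several motifs more often than promoters at large. Each motif was searched on both strands of the 76 windows of the 71 matched members and of all 32851 windows of the same length, and the motifs were chosen with earlier results of these data known. The NRF1-type motif lay in 26.3% of member windows and 4.6% of all windows. CCGGAAG, of ETS type, lay in 22.4% and 8.86%, and TGACGTCA, the CRE, in 5.26% and 1.79%. AAGATGGCG, of YY1 type, lay in 9.21% and 1.4%, and none of the 4 motifs contains another.

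Split by the call in skin Vγ6 over pLN, 37 of the 71 matched members were called lower. The NRF1-type motif was in 13 of these 37 and in 6 of the other 34, and the ETS-type motif in 8 and 9. The YY1-type motif was in 7 of the 37 and in 0 of the 34, those 7 being the first genes printed above. In 6 of them the motif lay after the annotated start, from position 23 of Ndufc1 to position 44 of Ndufs4, and in Atp5j it lay at -88 to -80. The CRE was in 1 of the 37 (Ndufa10) and in 3 of the 34 (Ndufa11, Ndufb2 and Uqcrfs1). In Uqcrfs1 it lay at -29 to -22 from the start that RefSeq gives. Uqcrfs1 had the highest skin Vγ6 to pLN ratio among members with at least 100 CPM (log2 0.67). The log2 ratios of Ndufa10, Ndufa11 and Ndufb2 were -1.73, -0.7 and -0.84, so members with this motif went both ways. A match is a description of letters and shows no binding, and the split was looked at after the calls were known and was given no test.

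Some members share their 3' ends with other genes, which can move reads between copies. In GENCODE M21 (GRCm38), 12 of the 87 nuclear members had another gene at 97% identity or more over at least 90 of the last 300 bases of a transcript: Atp5g2, Atp5h, Atp5l, Atp5o, Cox6c, Cox7c, Ndufb11, Ndufb3, Ndufs3, Ndufs5, Uqcr11 and Uqcrb. So did mt-Atp6, mt-Co1, mt-Co2, mt-Co3, mt-Nd3 and mt-Nd4l. The values of these genes are uncertain to that extent, and the median skin Vγ6 to pLN log2 ratio of nuclear members was -1.04 both with and without them.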

How the data were processed

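Raw UMI counts per gene and cell, deposited by the authors as 5 single-cell matrices, were used as given. The submitters' processing notes name Cell Ranger 2.0, Seurat 2.3 and build mm10, without their roles. The authors also deposited cluster means (another unit: values whose columns sum to 10000, per the values) and a marker table with natural log fold changes and p-values over cells; the authors' p-values were not used. The log base was read from the values.

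From the counts, cells with at least 200 genes and at most 10% mitochondrial UMIs were kept, UMIs were summed per library and scaled to CPM, and ratios were given exact conditional binomial intervals at 95%. No doublet caller was run; leaving out the 5% of cells with most UMIs was an alternative. A gene was called at 2-fold or more, with its interval off 1, where either library reached 20 CPM. Other scalings (TMM in edgeR 4.0.16, median of ratios), CPM minimums, mitochondrial limits, thinning and cell sets were tried. The calling script was tested on simulated data. Named genes were the core subunits, all mt- genes, the isoform families and, per comparison, the 6 highest and 6 lowest nuclear members with at least 100 CPM; further genes were named after their values were seen. The members, gene lists and tests were chosen with earlier results of these data known. Python 3.11.15 with numpy 2.4.6, scipy 1.17.1 and pandas 2.3.3 and blastn 2.17.0 were used.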

Additional observations from a re-analysis of the deposited data

How the results depend on the processing

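Among the 22 summary values of the comparisons, 208 alternative values moved by less than the counting interval or 1.5-fold, 114 moved further and 0 reversed a called direction. For the named members 2312 alternative values counted as the same, whether called or not, 499 uncalled values moved, 71 lost a call and 30 gained one. The cause of each move was not tested. The settings G2/M cells and narrower markers, and skin Vγ4 against pLN and thymus, were chosen after seeing the data. No paired analysis was possible because each group was 1 library. Depth limits low members most: 3 counts are 3.78 CPM in skin Vγ6 and 0.454 in thymus. Of all calls in skin Vγ6 over pLN, 34.4% were higher, against 47.1% under TMM and 48.1% under median of ratios. The same shares were 35.8%, 44.4% and 51.2% in skin Vγ6 over thymus, 57.3%, 67.5% and 60.6% in skin Vγ4 over skin Vγ6, and 37.1%, 57.2% and 56.5% in skin-fitting over pLN-fitting. Below, the reduced total leaves mt- and ribosomal protein UMIs out of the library size.

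For skin Vγ6 over pLN the median log2 ratio of nuclear subunits of -1.04 became -0.79 (TMM), -0.76 (median of ratios) and -0.77 (no other-type cells). For thymus over pLN the median log2 ratio of nuclear subunits of -0.29 became -0.18 (TMM), -0.23 (reduced total), -0.20 (no other-type cells) and -0.22 (no G2/M cells). For skin Vγ6 over thymus the median log2 ratio of nuclear subunits of -0.64 became -0.40 (median of ratios). For skin Vγ4 over skin Vγ6 the median log2 ratio of nuclear subunits of -0.02 became 0.07 (TMM, 5% limit) and -0.11 (thinned). For skin-fitting over pLN-fitting the median log2 ratio of nuclear subunits of -0.71 became -0.45 (TMM, median of ratios). For thymus-fitting over pLN-fitting the median log2 ratio of nuclear subunits of -0.17 became -0.08 (TMM), -0.12 (median of ratios), -0.13 (reduced total) and -0.25 (no dividing cells). For skin-fitting over thymus-fitting the median log2 ratio of nuclear subunits of -0.56 became -0.39 (TMM), -0.35 (median of ratios), -0.46 (5% limit) and -0.47 (thinned). In skin Vγ6 over pLN the log2 ratio of the mt- sum was 0.65 and became 0.90 (TMM), 0.93 (median of ratios), 0.67 (reduced total), 0.72 (no mitochondrial limit), 0.28 (5% limit), 0.55 (no dividing cells, no G2/M cells, thinned), 0.58 (no other-type cells), 0.59 (narrower markers), 0.60 (no top 5%) and 0.57 (mean over cells). In thymus over pLN the log2 ratio of the mt- sum was 0.32 and became 0.44 (TMM), 0.36 (median of ratios), 0.38 (reduced total), 0.31 (no mitochondrial limit), 0.27 (5% limit), 0.20 (no dividing cells), 0.25 (no other-type cells), 0.23 (no G2/M cells), 0.26 (narrower markers), 0.28 (no top 5%) and 0.24 (mean over cells, thinned). In skin Vγ6 over thymus the log2 ratio of the mt- sum was 0.33 and became 0.46 (TMM), 0.57 (median of ratios), 0.29 (reduced total), 0.41 (no mitochondrial limit), 0.01 (5% limit), 0.34 (no dividing cells) and 0.31 (no G2/M cells, thinned). In skin Vγ4 over skin Vγ6 the log2 ratio of the mt- sum was -0.02 and became 0.07 (TMM), 0.01 (median of ratios, no other-type cells, mean over cells), 0.06 (reduced total), 0.03 (no mitochondrial limit), 0.02 (5% limit, thinned) and 0.00 (no dividing cells, no top 5%). In skin-fitting over pLN-fitting the log2 ratio of the mt- sum was 0.35 and became 0.61 (TMM, median of ratios), 0.22 (5% limit), 0.32 (no dividing cells), 0.30 (no other-type cells) and 0.31 (no top 5%). In thymus-fitting over pLN-fitting the log2 ratio of the mt- sum was 0.08 and became 0.18 (TMM), 0.13 (median of ratios, reduced total), 0.03 (no dividing cells), 0.02 (no other-type cells, mean over cells), 0.06 (narrower markers) and 0.04 (no top 5%, thinned). In skin-fitting over thymus-fitting the log2 ratio of the mt- sum was 0.27 and became 0.44 (TMM), 0.48 (median of ratios), 0.23 (reduced total), 0.12 (5% limit), 0.30 (no dividing cells) and 0.32 (mean over cells). From 0, the number of nuclear members called higher in skin Vγ6 over pLN became 1 (TMM, median of ratios, no other-type cells, 1.5-fold). From 0, the number of nuclear members called higher in thymus over pLN became 1 (no minimum, 1.5-fold). From 1, the number of nuclear members called higher in skin Vγ6 over thymus became 0 (minimum of 100, 5% limit, thinned) and 2 (1.5-fold). From 0, the number of nuclear members called higher in skin Vγ4 over skin Vγ6 became 3 (5% limit, 1.5-fold) and 1 (thinned). From 43, the number of nuclear members called lower in skin Vγ6 over pLN became 27 (TMM) and 25 (median of ratios). From 2, the number of nuclear members called lower in thymus over pLN became 1 (TMM, median of ratios, no other-type cells, no G2/M cells, narrower markers, no top 5%, mean over cells, thinned), 4 (no minimum, no dividing cells), 0 (minimum of 100) and 14 (1.5-fold). From 26, the number of nuclear members called lower in skin Vγ6 over thymus became 16 (TMM), 10 (median of ratios) and 44 (1.5-fold).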

Other observations

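Cox6a2, the heart and muscle form of subunit 6a, was low everywhere (3.32 CPM in pLN), but within pLN its UMIs lay mostly in cells outside the cell cycle rule (at least 3 UMIs of the 20 genes), at 26.2 CPM in those cells against 1.04 CPM in the cells that met it, from few UMIs in 1 library and chosen after the values were seen. Cox6b2, the testis form of subunit 6b, was highest in thymus at 11.8 CPM, with 4.66 in skin Vγ4, 4.27 in pLN, 1.26 in skin Vγ6 and 1.01 in the mixture. Across cells of 1 library, nuclear and mt- shares of UMIs in thinned cells had Spearman's rho of -0.22 in skin Vγ6, -0.25 in skin Vγ4, -0.23 in pLN, -0.08 in thymus and -0.17 in the mixture; the 2 shares come from the same fixed total of UMIs.

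mt-Atp8 gave 0.333% of mt- UMIs in the mixture, against 1.09% to 1.9% in the 4 C57BL/6 libraries, and mt-Nd1 gave 9.43% against 7.42% to 9.97%.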
